A study of Caenorhabditis elegans with 6 samples.

Results

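The 9 genes described here make or break down the disaccharide trehalose or encode a late embryogenesis abundant (LEA) protein. They are the rows of the deposited table named tps-1, tps-2, gob-1, tre-1, tre-2, tre-3, tre-4, tre-5 and lea-1, out of 20422 genes, and all 9 had an adjusted p. RNA came from whole sterile Caenorhabditis elegans adults, with 3 samples of daf-2(e1370); mes-1(bn84ts) worms of strain SS1224, called double mutants here, and 3 samples of mes-1(bn84ts) worms of strain SS0415, called single mutants. Both genotypes thus carry the temperature-sensitive mes-1 allele that leaves many adults without a germline, and they differ in e1370, a mutation that weakens the receptor for insulin-like peptides in every cell of the worm. Per the labels' protocols, embryos laid at 24°C were kept at 15°C from day 1, which avoids dauer arrest of daf-2 larvae, and the adults spent the time from day 5 to day 6 at 24°C. Each sample was a pool of 100 adults chosen by eye for the lack of embryos. Each genotype is represented by 1 strain, and the labels do not state whether its 3 samples were grown separately. The p-values therefore speak only of the spread among these samples, which may be technical.

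Trehalose is a sugar of paired glucose units that serves nematodes as a store of carbohydrate and protects membranes and proteins against drying, freezing and heat. TPS enzymes join UDP-glucose and glucose-6-phosphate into trehalose-6-phosphate, a phosphatase encoded by gob-1 releases trehalose, and trehalases split it back into glucose. LEA proteins are unstructured hydrophilic proteins that accumulate in drying cells. Mutants of daf-2 are known for high trehalose, long life and resistance to stress.

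The deposited table has no value for single samples. It gives, for each gene, a mean normalized count over all 6 samples, a DESeq2 log2 fold change with its adjusted p, where positive values mean more RNA in double mutants, and 1 RPKM value per genotype from Cuffdiff2, a level per length of RNA with no error attached. A gene is said to be called, or to have risen or fallen, where the adjusted p is under 0.05. The error given beside a fold change is the standard error implied by the adjusted p, and intervals are 95% intervals built from it. The total reads of the samples are unknown, but the worth of 1 read in the means gives relative depths of 2.37, 1.83 and 1.00 for the double-mutant libraries and 3.06, 1.47 and 1.41 for the single-mutant libraries, with the shallowest library of all 6 set to 1.00. The mutations change the proteins, so RNA levels do not check the genotypes. For daf-2 the authors' deposited table gave RPKM of 28.9 in double mutants and 21.5 in single mutants, and its log2 fold change of 0.35 was not called (DESeq2 adjusted p = 0.615).

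Trehalose and LEA genes moved in both directions in double mutants. In the authors' deposited table, 3 of the 9 rose (tps-1, tre-4 and lea-1), 2 fell (tre-2 and tre-3) and 4 were not called, while over all 9820 genes with an adjusted p 10.3% were called, 3.92% higher and 6.35% lower. A synthase gene and the LEA gene were among the rises and both falls were of trehalase genes, but tre-4, also a trehalase gene, rose. Calls are more common among abundant genes, and the members were chosen with earlier results of these data known. Of the 8 members whose mean normalized count in the authors' deposited table was at least 100, 5 were called (3 higher and 2 lower), where 18.8% of the 2653 genes that abundant were, 7.39% higher and 11.4% lower. The median log2 fold change of the 9 members was 0.33 in the authors' deposited table, against -0.03 for all genes tested. In RNA of whole worms, fewer cells of a type and less RNA per cell cannot be told apart.

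**Figure D1:**
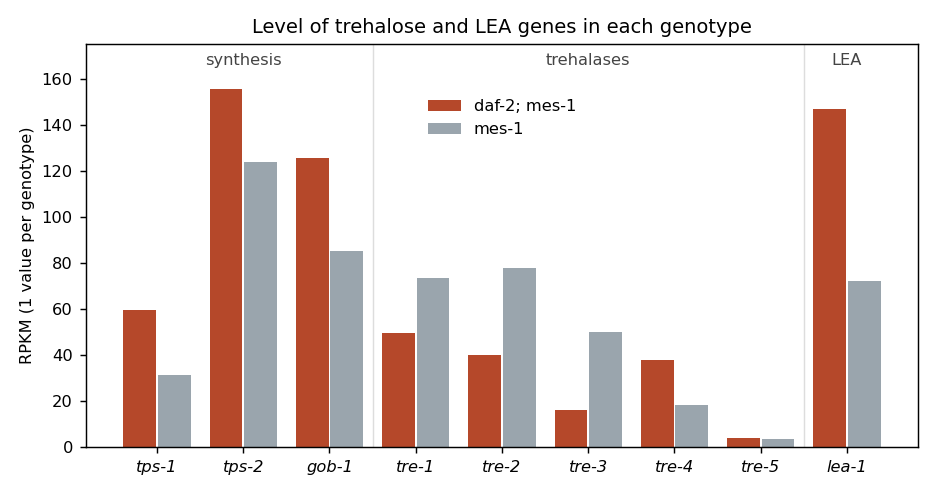
RPKM of each gene in double mutants (red, left bar of each pair) and in single mutants (grey, right bar), 1 deposited value per genotype and no error. The 3 synthesis genes and lea-1 stand higher in double mutants, tre-1, tre-2 and tre-3 stand lower there, and tre-4 stands higher, at 37.6 RPKM in double mutants against 18.2 in single mutants.

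Of the 2 genes for trehalose-6-phosphate synthase, tps-1 rose and tps-2 was not called. The gene tps-1 (WBGene00006602, ZK54.2) lies on the minus strand of chromosome X from 17467046 to 17474460 in the coordinates of the table. The sources used here do not give the genome build of these coordinates. In RPKM, the authors' deposited table gave it 59.5 in double mutants and 31.1 in single mutants. The DESeq2 log2 fold change in the authors' deposited table was 0.90 ± 0.22 (implied SE, DESeq2 adjusted p = 6.42e-04), a 1.87-fold rise with an interval of 1.39 to 2.51. Among all genes with an adjusted p, 454 had a larger positive change.

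The second synthase gene, tps-2 (WBGene00006603, F19H8.1, chromosome II, 14600827 to 14610476, plus strand), was the most abundant of the 9 by RPKM in both genotypes. The authors' deposited table gave it 155 RPKM in double mutants and 124 in single mutants. Its log2 fold change in the authors' deposited table was 0.33 ± 0.22 (implied SE), with an interval of -0.10 to 0.75 and an adjusted p of 0.528 (DESeq2). That interval leaves room for no change and for a 1.69-fold rise, and it overlaps the log2 interval of tps-1, 0.48 to 1.33. Whether the changes of the synthase genes differ was not tested. Per length of RNA, tps-2 stood 2.61-fold above tps-1 in double mutants and 3.97-fold above it in single mutants.

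The phosphatase gene gob-1, named for the gut obstruction of its mutants, removes the phosphate of trehalose-6-phosphate (WBGene00001649, H13N06.3, chromosome X, 15493468 to 15497412, plus strand). In RPKM, the authors' deposited table gave it 125 in double mutants and 85.2 in single mutants. The log2 fold change of 0.53 ± 0.23 (implied SE) in the authors' deposited table was not called (DESeq2 adjusted p = 0.143). Its interval before adjustment, 0.09 to 0.98, lies above 0, and the bound on its unadjusted p is 0.0195. All 3 synthesis genes thus had positive values, of which 1 passed the threshold.

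**Figure D2:**
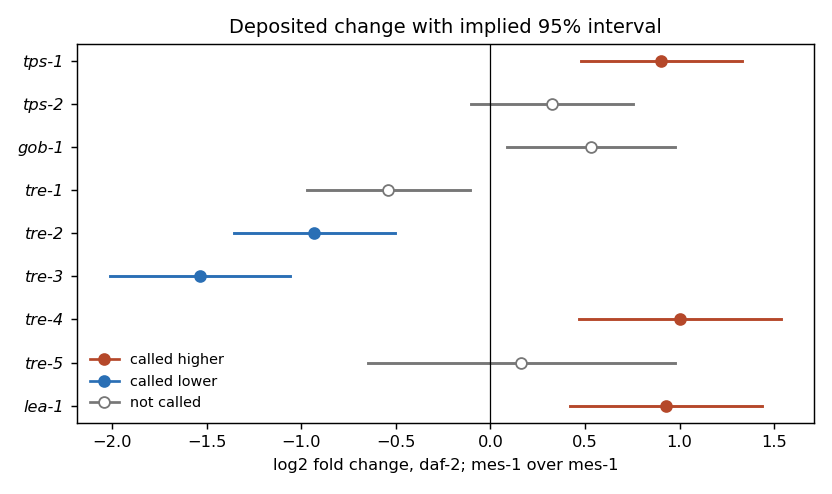
Log2 fold change of each gene from the authors' table, with double mutants over single mutants (points) with the 95% interval implied by the adjusted p (lines). Filled red points were called higher, filled blue points lower, and open points were not called. The intervals of tre-3 (-2.01 to -1.06) and tre-4 (0.47 to 1.54) lie far apart on either side of 0.

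The 5 trehalase genes did not change as a group: tre-3 and tre-2 fell, tre-4 rose, and tre-1 and tre-5 were not called. The largest change of any of the 9 genes was the fall of tre-3 (WBGene00006609, W05E10.4, chromosome V, 11709757 to 11715885, minus strand). In RPKM, the authors' deposited table gave it 16.1 in double mutants and 49.9 in single mutants. In the authors' deposited table its level dropped to 0.345 of that in single mutants (log2 fold change -1.53 ± 0.24, implied SE; DESeq2 adjusted p = 1.31e-08), with an interval of 0.249 to 0.479. Of all genes with an adjusted p, 277 had a more negative change.

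For tre-2 (WBGene00006608, T05A12.2, chromosome IV, 6876719 to 6883431, minus strand) the authors' deposited table gave 39.8 RPKM in double mutants and 77.6 in single mutants. It was the most abundant trehalase transcript of single mutants. The log2 fold change in the authors' deposited table was -0.93 ± 0.22 (implied SE, DESeq2 adjusted p = 3.81e-04), which leaves 0.524 of the level in single mutants, with an interval of 0.390 to 0.704.

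The gene tre-1 (WBGene00006607, F57B10.7, chromosome I, 6554730 to 6558594, plus strand) had RPKM of 49.4 in double mutants and 73.2 in single mutants in the authors' deposited table, and was the most abundant trehalase transcript in double mutants. Its log2 fold change of -0.54 ± 0.22 (implied SE) in the authors' deposited table was not called (DESeq2 adjusted p = 0.11), although its interval before adjustment, -0.97 to -0.11, lies below 0. Like gob-1, it thus had a value of intermediate size that did not pass once all genes were taken into account.

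The gene tre-4 (WBGene00006610, F15A2.2, chromosome X, 13472087 to 13475831, plus strand) went the other way. In RPKM, the authors' deposited table gave it 37.6 in double mutants and 18.2 in single mutants. It rose 2.00-fold per the authors' deposited table (log2 fold change 1.00 ± 0.27, implied SE; DESeq2 adjusted p = 0.00382), with an interval of 1.38 to 2.90. Per length of RNA, tre-4 stood at 2.34 times the level of tre-3 in double mutants and at 0.364 times that level in single mutants, so the order of the pair differed between the genotypes.

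The least abundant trehalase gene was tre-5 (WBGene00006611, C23H3.7, chromosome II, 53013 to 55304, minus strand), with 3.85 RPKM in double mutants and 3.31 in single mutants in the authors' deposited table. The authors' deposited table has a mean normalized count of 22.1 for it, which rests on 78 to 236 reads over the 6 libraries. At that depth its log2 fold change of 0.16 ± 0.41 (implied SE, DESeq2 adjusted p = 0.949, authors' deposited table) has an interval of -0.65 to 0.97. The other 8 genes rest on at least 498 reads each by the same bound.

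**Figure D3:**
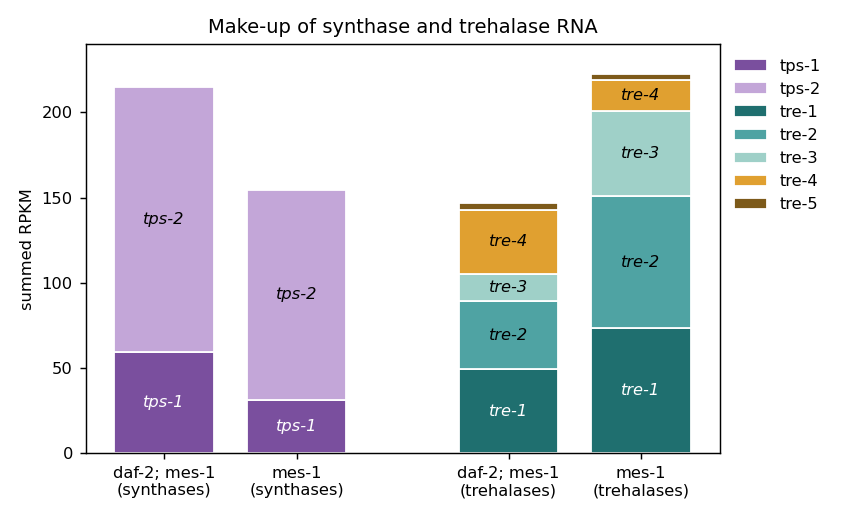
Summed RPKM of the synthase genes (left pair of bars) and of the trehalase genes (right pair) in double mutants and in single mutants, divided by gene. The synthase sum is higher in double mutants (215, against 155 in single mutants), the trehalase sum is lower there (147, against 222 in single mutants), and tre-4 takes a larger part of the trehalase bar.

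Summed over genes by RPKM, with 1 value per genotype, the RNA for synthases was higher and that for trehalases lower in double mutants. From the RPKM of the authors' deposited table, the synthase genes summed to 215 in double mutants and 155 in single mutants, and the trehalase genes to 147 in double mutants and 222 in single mutants. The ratio of synthase to trehalase RPKM was 1.46 in double mutants and 0.696 in single mutants, a 2.10-fold difference for which the table gives no error. Both sums include genes that were not called. Among the synthases this was tps-2, at 155 RPKM in double mutants and 124 in single mutants. Among the trehalases these were tre-5 and tre-1, the latter at 49.4 RPKM in double mutants and 73.2 in single mutants. The 2.10-fold difference lay between 1.83 and 2.90 when each of the 7 genes was left out in turn, lowest without tre-3 and highest without tps-2. That range does not measure the spread between samples. The RNA of enzymes is not their activity, and no trehalose was measured here.

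The make-up of the trehalase RNA also differed. By the RPKM of the authors' deposited table, tre-4 was 25.6% of trehalase RNA in double mutants and 8.18% in single mutants, while tre-3 was 10.95% in double mutants and 22.5% in single mutants. The share of tre-2 was 27.1% in double mutants and 34.9% in single mutants, and that of tre-1 33.7% in double mutants and 32.9% in single mutants (authors' deposited table). Among the synthases, tps-1 made up 27.7% in double mutants and 20.1% in single mutants in the authors' deposited table. These shares are descriptions with 1 value per genotype, and their spread between samples is unknown.

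The desiccation gene lea-1, which encodes a LEA protein that helps worms survive drying, rose about as much as tps-1 (WBGene00002263, K08H10.1, chromosome V, 10011847 to 10023212, plus strand). In RPKM, the authors' deposited table gave it 147 in double mutants and 72.2 in single mutants, which placed it at rank 2 of the 9 genes in double mutants and at rank 5 in single mutants. The log2 fold change in the authors' deposited table was 0.93 ± 0.26 (implied SE, DESeq2 adjusted p = 0.00488), a 1.91-fold rise with an interval of 1.34 to 2.71. The interval is wider than that of tps-1 although lea-1 has the higher count: 224 genes with a mean within 1.2-fold of that of lea-1 had a median implied SE of 0.23 on the log2 scale, against 0.26 for lea-1 itself.

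The level of lea-1 per length is less certain than those of the other genes. The Ensembl release 115 annotation of the WBcel235 assembly holds 17 transcripts of lea-1, for proteins of 497 to 1397 residues, against 1 to 3 transcripts for each of the other members. Its merged exons span 4830 bases there, while its mean count and RPKM in the authors' deposited table together imply a length of 2314 bases, 0.479 of that span. For the other members this proportion was between 0.930 and 1.24. The lea-1 gene spans 11366 bases in the deposited coordinates but 16246 in WBcel235, so its counts and these exons rest on unlike gene models. How far the low proportion follows from this was not tested. Counted per kilobase of merged exon in the longer WBcel235 model, lea-1 had a mean of 123 normalized counts. That put it at rank 5 of the 9 genes and under tps-2 with 380.3. The fold change, which compares the same gene between genotypes, does not use this length. A shift between long and short transcripts of lea-1, which could alter its counts, was not examined.

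The genes share few features of structure beyond their families. Among the trehalase genes the longest annotated proteins have 567 residues for tre-1, 671 for tre-2, 608 for tre-3, 635 for tre-4 and 674 for tre-5, so the genes that fell and the one that rose encode proteins of like size. The synthases are the longest enzymes, with up to 1331 residues for tps-1 and 1229 for tps-2, and gob-1 encodes 439 residues. Each trehalase gene lies on a chromosome of its own, and 3 of the 9 genes (tps-1, gob-1 and tre-4) lie on X. These 3 had positive values, 2 of them called, while 4.05% of the 1458 X-linked genes with an adjusted p were called higher with a median log2 fold change of -0.05 over the X genes in the authors' deposited table. That share covers X genes of any abundance, while all 3 members had a mean normalized count above 100, where calls are more common.

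Reads from overlapping genes could touch only small stretches of the members. The library kit does not record strand. In the WBcel235 annotation 51 exon bases of tre-4 (2.58%) overlap efn-3 on the opposite strand, and 19 exon bases of lea-1 (0.393%) overlap acl-2. The authors' deposited table gave efn-3 a mean normalized count of 6.00 and acl-2 a log2 fold change of -0.02, and neither gene was called. The exons of tps-2 share 24 bases with arl-3 on the same strand. Reads shared between the trehalase genes through similar sequence were not examined.

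**Figure D4:**
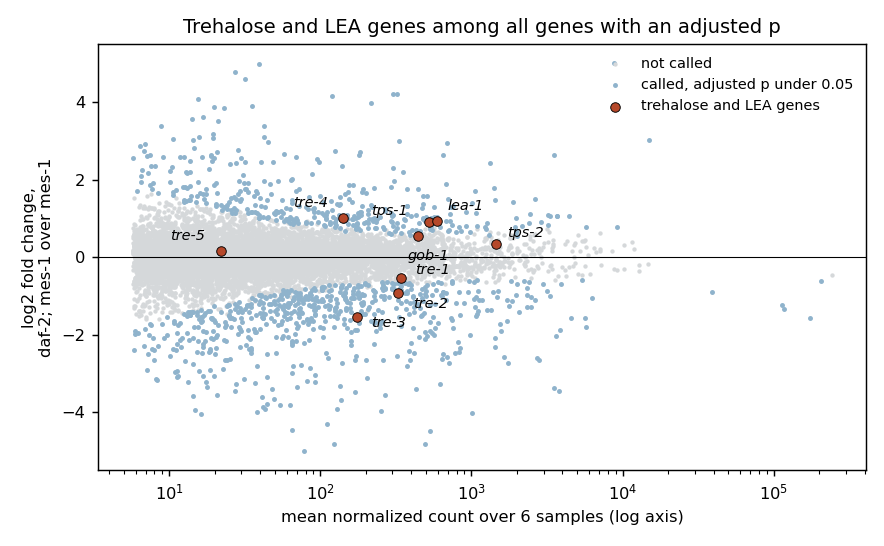
Log2 fold change against mean normalized count over 6 samples (log axis) for the 9820 genes with an adjusted p, both from the authors' table. Blue points were called, pale grey points were not, and the red points are the 9 trehalose and LEA genes. The genes sit between -1.53 and 1.00, inside the range of called genes, and 8 of them have a mean above 100.

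Genes around trehalose metabolism changed in part. Of 49 genes listed in 5 groups 47 were found and 42 had an adjusted p, and in the authors' deposited table, 8 of these were called higher and 3 lower, where 3.92% and 6.35% of all genes were. Of the 8 rises, 5 were in the list of protective proteins, which was drawn up with earlier results for its heat shock genes known. Without that list, 3 of 35 genes were called higher and 3 lower in the authors' deposited table, and the median log2 fold change was 0.08, against -0.03 for all genes. The lists were not matched for abundance, and all of them were chosen with earlier results of these data known. Among the 2653 genes with a mean normalized count of at least 100, 7.39% were called higher and 11.4% lower.

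Among 16 genes with an adjusted p that supply sugar phosphates or handle glycogen, the authors' deposited table called 1 higher and 2 lower. The rise was in pygl-1, the glycogen phosphorylase gene, with RPKM of 321 in double mutants and 219 in single mutants per the authors' deposited table (log2 fold change 0.55, DESeq2 adjusted p = 0.0407). The falls were in aagr-2 and aagr-1, genes related to acid alpha-glucosidase, the enzyme of lysosomal glycogen breakdown in mammals. The authors' deposited table gave aagr-2 138 RPKM in double mutants and 378 in single mutants (log2 fold change -1.41, DESeq2 adjusted p = 4.88e-08), and aagr-1 91.8 in double mutants and 245 in single mutants (log2 fold change -1.36, DESeq2 adjusted p = 9.91e-06). The glycogen synthase gene gsy-1, which draws on the same UDP-glucose as the TPS enzymes, had a log2 fold change of 0.43 in the authors' deposited table that was not called (DESeq2 adjusted p = 0.364).

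Of 7 genes of the glyoxylate shunt and gluconeogenesis, which turn fat into glucose, 1 rose in the authors' deposited table. It was pck-1, a phosphoenolpyruvate carboxykinase gene, with RPKM of 666 in double mutants and 353 in single mutants per the authors' deposited table (log2 fold change 0.88, DESeq2 adjusted p = 4.37e-04). The glyoxylate enzyme gene icl-1, listed as gei-7, had a log2 fold change of -0.25 in the authors' deposited table and was not called (DESeq2 adjusted p = 0.775). Another entry that carries the name icl-1, with a mean normalized count of 14.6, had a log2 fold change of -0.08 and was not called either. None of the 5 sugar transporter genes with an adjusted p, all of the SWEET family, was called by DESeq2 in the authors' deposited table, and 0 had a bounded unadjusted p under 0.05.

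Among 7 measured genes of other osmolytes and the osmotic response, 1 was called higher and 1 lower by the authors' deposited table. The gene gpdh-1, whose enzyme acts in the synthesis of glycerol under osmotic stress, fell to 9.92 RPKM in double mutants, against 27.0 in single mutants, per the authors' deposited table (log2 fold change -1.26, DESeq2 adjusted p = 0.00664). The inositol transporter gene hmit-1.2 rose to 13.2 RPKM in double mutants, against 5.52 in single mutants, per the authors' deposited table (log2 fold change 1.16, DESeq2 adjusted p = 0.0167).

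Genes for other protective proteins had the largest changes of the 5 groups. The authors' deposited table gave positive values for all 7, of which 5 rose, and their median log2 fold change was 2.15. The largest rise was in djr-1.2, a DJ-1-related glyoxalase gene, with 36.1 RPKM in double mutants and 1.67 in single mutants per the authors' deposited table (log2 fold change 3.52, DESeq2 adjusted p = 1.1e-09). The small heat shock gene hsp-12.3 followed with 277 RPKM in double mutants and 36.4 in single mutants per the authors' deposited table (log2 fold change 2.73, DESeq2 adjusted p = 1.7e-14). The other called genes were hsp-12.6, hsp-70 and dur-1, a gene named for its higher expression in dauers. This list was drawn up with earlier results for these heat shock genes known, so its direction is not independent evidence. The log2 fold changes of lea-1 and tps-1 in the authors' deposited table, 0.93 and 0.90, are under every called rise of this list.

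**Figure D5:**
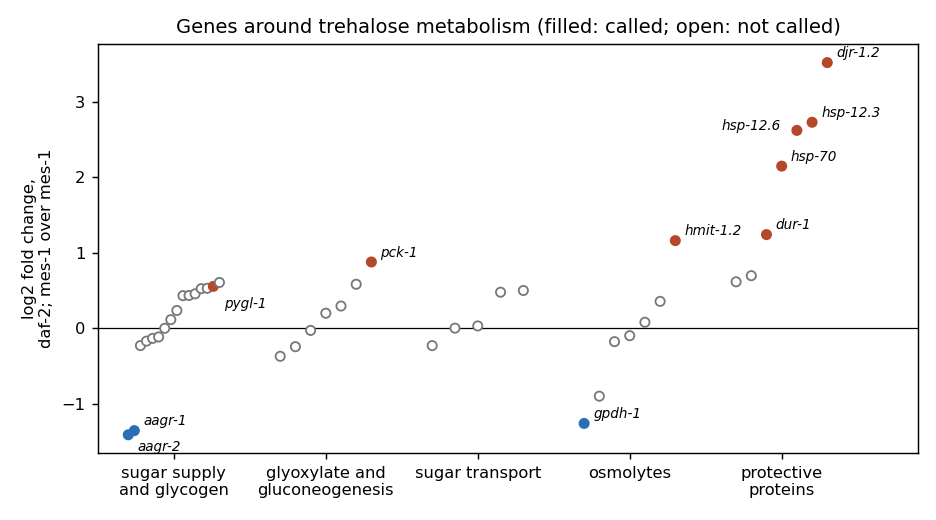
Log2 fold change in double mutants over single mutants, from the authors' table, for genes around trehalose metabolism in 5 lists, sorted within each list. Filled red points were called higher, filled blue points lower, and open points were not called. Most points lie near 0, 5 of 7 protective genes are filled and above 1, and aagr-1, aagr-2 and gpdh-1 are the filled points under 0.

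Markers of tissues moved unequally beside these results. Of 10 intestine markers, 6 were called lower and none higher in the authors' deposited table, where 6.35% of all genes were called lower. Positive values, not called, were found for 2 of the 10, ges-1 and elt-2. The summed RPKM of the 10 was 2832 in double mutants and 5141 in single mutants. Most of either sum came from asp-1 and cpr-6. The first fell (508 RPKM in double mutants, 1956 in single mutants), and cpr-6 was not called (1809 in double mutants, 2130 in single mutants). None of the 10 was listed at 0. The peptide transporter gene pept-1 was at 0.476 RPKM in double mutants and 10.6 in single mutants per the authors' deposited table (log2 fold change -3.93, DESeq2 adjusted p = 4.1e-16). The gene pho-1, for a gut acid phosphatase, was at 1.49 RPKM in double mutants and 27.4 in single mutants per the authors' deposited table (log2 fold change -3.67, DESeq2 adjusted p = 5.3e-16). Of the gut GATA factor genes, elt-2 had 16.4 RPKM in double mutants and 15.5 in single mutants and elt-7 had 11.7 in double mutants and 19.6 in single mutants in the authors' deposited table, and neither was called. Of 5 hypodermis markers with an adjusted p none was called by DESeq2 in the authors' deposited table and 0 had a bounded unadjusted p under 0.05. In this list wrt-2 was listed at 0, and the summed level was 1318 RPKM in double mutants and 976 in single mutants. Most of that sum was the collagen gene col-19, which was not called, and the other 6 markers summed to 40.9 RPKM in double mutants and 42.4 in single mutants. Of 4 muscle markers with an adjusted p, myo-3 was called higher per the authors' deposited table (log2 fold change 0.93, DESeq2 adjusted p = 3.39e-04), and the sum over the list was 937 RPKM in double mutants and 800 in single mutants. The 10 germline markers summed to 16.4 RPKM in double mutants and 44.9 in single mutants in the authors' deposited table, were lower in double mutants in 10 of 10 cases by RPKM, and none was above 6.60 RPKM or at 0. Of the 6 with an adjusted p, nos-2 was called lower per the authors' deposited table (log2 fold change -1.91, DESeq2 adjusted p = 0.0262). By DESeq2, 5 of these 6 had negative values, and glh-1 had a positive one of 0.14 that was not called. For rme-2, with no adjusted p, the DESeq2 log2 fold change was -0.56, beside RPKM of 0.975 in double mutants and 6.60 in single mutants. Of the 4 germline markers without an adjusted p, rme-2, mex-5 and oma-2 had mean normalized counts of 28.7, 18.1 and 16.9. These exceed the 5.95 of nos-2, which had an adjusted p, and the reason for the gap is not given. Whether 1 sample stands out in these genes cannot be seen, so how the RPKM differences of the germline markers spread over the samples is unknown. The part of the differences in tissue markers in the changes of the trehalose genes was not tested.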

How the data were processed

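RNA-seq of 3 daf-2; mes-1 and 3 mes-1 samples was available as 1 table of the authors' comparison. The authors' tools, TopHat2 and DESeq2, come from the submitters' processing notes, which give no versions. The sources used here do not give the genome build. Per the file headers, the signal column is the mean DESeq2-normalized count, the log2 column is the DESeq2 log2 fold change (double over single mutants), and the p-value column is Benjamini-Hochberg adjusted by the authors. The RPKM columns were made by the authors with Cuffdiff2, per the file headers. No new test was run, because no per-sample values are in the table; this replaced the planned count test.

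Each adjusted p was turned into an upper bound on the unadjusted p by inverting the adjustment over 9820 genes. Dividing the size of the log2 fold change by the matching normal quantile gave the implied SE, which is at least as large as the SE behind a Wald test. Read ranges come from the 6 repeated steps of the lowest means, each the worth of 1 read in 1 library, and cover counting only. Implied lengths were scaled on 1316 genes with 1 transcript and a mean of at least 100. Transcripts and exons came from Ensembl release 115 (WBcel235) by gene ID; no coordinate of that build is printed. Lists were matched by present symbol, sequence name or RefSeq locus tag, and 2 listed transporters (fgt-1 and fgt-2) had no match. The rule for named genes took all 9 members and, from each list, up to 2 called genes per direction with the largest change; other genes named were chosen after their values were seen. Members and lists were chosen with earlier results of these data known. Python 3.11.15, pandas 2.3.3 and scipy 1.17.1 were used. Promoter and protein sequences were not used here.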

Additional observations from a re-analysis of the deposited data

How the results depend on the processing

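No paired analysis was possible because the table carries no value for single samples; for the same reason the planned edgeR and DESeq2 fits, the fits without each replicate and the unfiltered adjustment were not run. For the 9 genes, RPKM ratios with pseudocounts of 0.1, 1 and 5, centring on the median of all genes, and 2 scalings of the RPKM totals chosen after seeing the data gave 54 values. All 54 kept their sign and lay within 1 implied SE of the deposited value. The range was -1.63 to -1.38 for tre-3, 0.88 to 1.17 for tre-4 and 0.09 to 0.34 for tre-5. At an adjusted p under 0.01 or under 0.1, the members called stayed at 3 higher and 2 lower. A required mean of at least 10 could not change this, as the lowest mean of a member was 22.1 (tre-5). With a log2 fold change of at least 1 also required, 1 was higher (tre-4) and 1 lower (tre-3). Without the members whose exons overlap a gene on the opposite strand (tre-4 and lea-1), 1 was higher and 2 were lower, as fewer genes were counted. Depth limits tre-5 most.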
